A study of Rattus norvegicus with 10 samples.

Results

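The genes described here are 9 members of striatal dopamine signaling: Ppp1r1b, the dopamine receptor genes Drd1, Drd2 and Drd5, and Adcy5, Gnal, Pde10a, Rgs9 and Penk. They were looked up by gene symbol in a table of read counts for 32545 rat genes, in which each of the 9 was found once, and all 9 passed the filter on low counts that left 15032 genes for testing. The set was assembled to see whether Ppp1r1b moves alone, and Ppp1r1b was chosen on its measured values in these libraries. Its levels and fold changes are therefore given as a description with no test, and tests are given for the other 8 members, which were selected by their known function with results of these libraries already in view.

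RNA-seq was performed on the microdissected CA1 region of hippocampal slices from male Wistar rats aged 5 to 7 weeks, with 2 libraries in each of 5 groups. Slices of the SKF group received SKF, an agonist of the dopamine D1/D5 receptors, and served as the reference for the receptor-stimulated state. The SKF+Aβ group received SKF with 200 nM oligomers of Aβ, the amyloid-beta peptide of Alzheimer's disease. The SKF+Aβ+CSP group also received CSP, a glucose-derived carbon nanosphere that is the empty carrier, at 0.36 µg/ml, and the SKF+Aβ+CSP-TTK21 group received the same carrier loaded with TTK21, a small molecule that activates CBP and p300, which acetylate histones, at 0.36 µg/ml. The fifth group received CSP-TTK21 alone, with neither SKF nor Aβ. Each library pooled 2 slices from 2 biological samples, and the tissue was whole microdissected tissue, so that fewer cells of a type and less RNA per cell cannot be told apart. The untreated group of the study was not analysed here, so no value below shows what SKF itself did. The libraries held 6753742 to 8473407 counts, and levels are given as normalized CPM, which are counts scaled to the size of each library and by edgeR's TMM factors. Levels are compared between groups for 1 gene at a time, since no gene lengths were used.

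In striatal projection neurons, D1-type receptors (Drd1, Drd5) raise cyclic AMP through the G protein subunit encoded by Gnal and the adenylyl cyclase encoded by Adcy5, whereas D2-type receptors (Drd2) lower it. Cyclic AMP activates protein kinase A, which phosphorylates DARPP-32, the product of Ppp1r1b, and turns it into an inhibitor of a major serine/threonine phosphatase. Pde10a encodes a phosphodiesterase that breaks down cyclic nucleotides, Rgs9 encodes a protein that speeds the switching off of G proteins, and Penk encodes the precursor of the enkephalins. In the hippocampus most of these genes, Drd5 aside, are less abundant than in the striatum. Hippocampal D1/D5 signaling is best known for its part in long-lasting synaptic plasticity. No striatal tissue was measured here.

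Because cyclic AMP acts on transcription through the cyclic AMP response element, the promoters of the members were searched for the full element TGACGTCA and its shorter core TGACG on both strands, the core also counting inside a full element. RefSeq promoter windows of 300 bases in build GRCr8, 250 before and 50 after the start, matched 7 of the 9 members with 8 windows; Ppp1r1b and Penk were not among them. No window held the full element, which 1.83% of 33469 promoters did. The core was in 1 of the 8 windows, against 21.2% of all promoters. The window with the core belonged to Pde10a, and it held 2 matches. It is shown beside the window of Adcy5, the member whose level ran closest to that of Ppp1r1b and whose window had none. Both are the 250 bases before the start, read 5′ to 3′ on the minus strand, with the core matches in capitals.
Pde10a, chr1:54765669-54765918: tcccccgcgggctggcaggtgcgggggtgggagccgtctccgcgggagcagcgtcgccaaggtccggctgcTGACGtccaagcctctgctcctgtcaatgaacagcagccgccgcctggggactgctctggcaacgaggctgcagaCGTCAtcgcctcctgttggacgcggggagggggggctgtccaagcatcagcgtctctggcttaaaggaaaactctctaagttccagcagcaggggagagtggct
Adcy5, chr11:79123344-79123593: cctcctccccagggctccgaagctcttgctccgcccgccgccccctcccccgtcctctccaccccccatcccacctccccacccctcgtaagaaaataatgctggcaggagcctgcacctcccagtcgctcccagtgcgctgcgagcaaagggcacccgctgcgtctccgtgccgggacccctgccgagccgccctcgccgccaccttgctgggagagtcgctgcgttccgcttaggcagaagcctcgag
A match is a description of these letters, and its absence says nothing on factor binding.

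Ppp1r1b (ENSRNOG00000028404) was highest in the SKF group, at 75.6 and 77.7 normalized CPM in its 2 libraries (547 and 582 counts). In the SKF+Aβ libraries it stood at 36.9 and 37.4 (264 and 251 counts), and in the SKF+Aβ+CSP libraries at 40.8 and 33.0 (345 and 225 counts). In the SKF+Aβ+CSP-TTK21 libraries it stood at 49.7 and 59.0 (389 and 414 counts), and with CSP-TTK21 alone at 56.1 and 59.5 (399 and 445 counts). All 8 libraries outside the SKF group lay below both SKF libraries, and the 4 libraries with CSP-TTK21 lay above the 4 with Aβ and no TTK21. Of the 4 with CSP-TTK21, 2 had received neither SKF nor Aβ, so this order does not separate TTK21 from the other treatments. Expressed against the SKF mean, the group means were 48.5% with SKF+Aβ, 48.1% with SKF+Aβ+CSP, 70.9% with SKF+Aβ+CSP-TTK21 and 75.4% with CSP-TTK21 alone.

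The fitted log2 fold change of Ppp1r1b was -1.05 ± 0.15 (SE) in SKF+Aβ against SKF and -1.05 ± 0.15 in SKF+Aβ+CSP against SKF. It was -0.50 ± 0.15 in SKF+Aβ+CSP-TTK21 against SKF and -0.41 ± 0.15 in CSP-TTK21 alone against SKF. Among the Aβ-treated groups, SKF+Aβ+CSP-TTK21 stood 0.55 ± 0.15 above SKF+Aβ and 0.56 ± 0.15 above SKF+Aβ+CSP on the log2 scale, and its libraries did not overlap those of either group. In contrast, SKF+Aβ+CSP and SKF+Aβ overlapped, with a difference of -0.01 ± 0.15, and CSP-TTK21 alone overlapped with SKF+Aβ+CSP-TTK21, which differed from it by -0.09 ± 0.15. In order of level the groups were thus SKF, CSP-TTK21 alone, SKF+Aβ+CSP-TTK21, SKF+Aβ and SKF+Aβ+CSP, in which the neighbours named as overlapping did not differ beyond their spread. With each library left out in turn, the value for SKF+Aβ against SKF ran from -1.08 to -1.03, that for SKF+Aβ+CSP against SKF from -1.23 to -0.92 and that for SKF+Aβ+CSP-TTK21 against SKF from -0.64 to -0.38. The 4 comparisons against SKF share its 2 libraries, so their values are not separate observations.

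**Figure D1:**
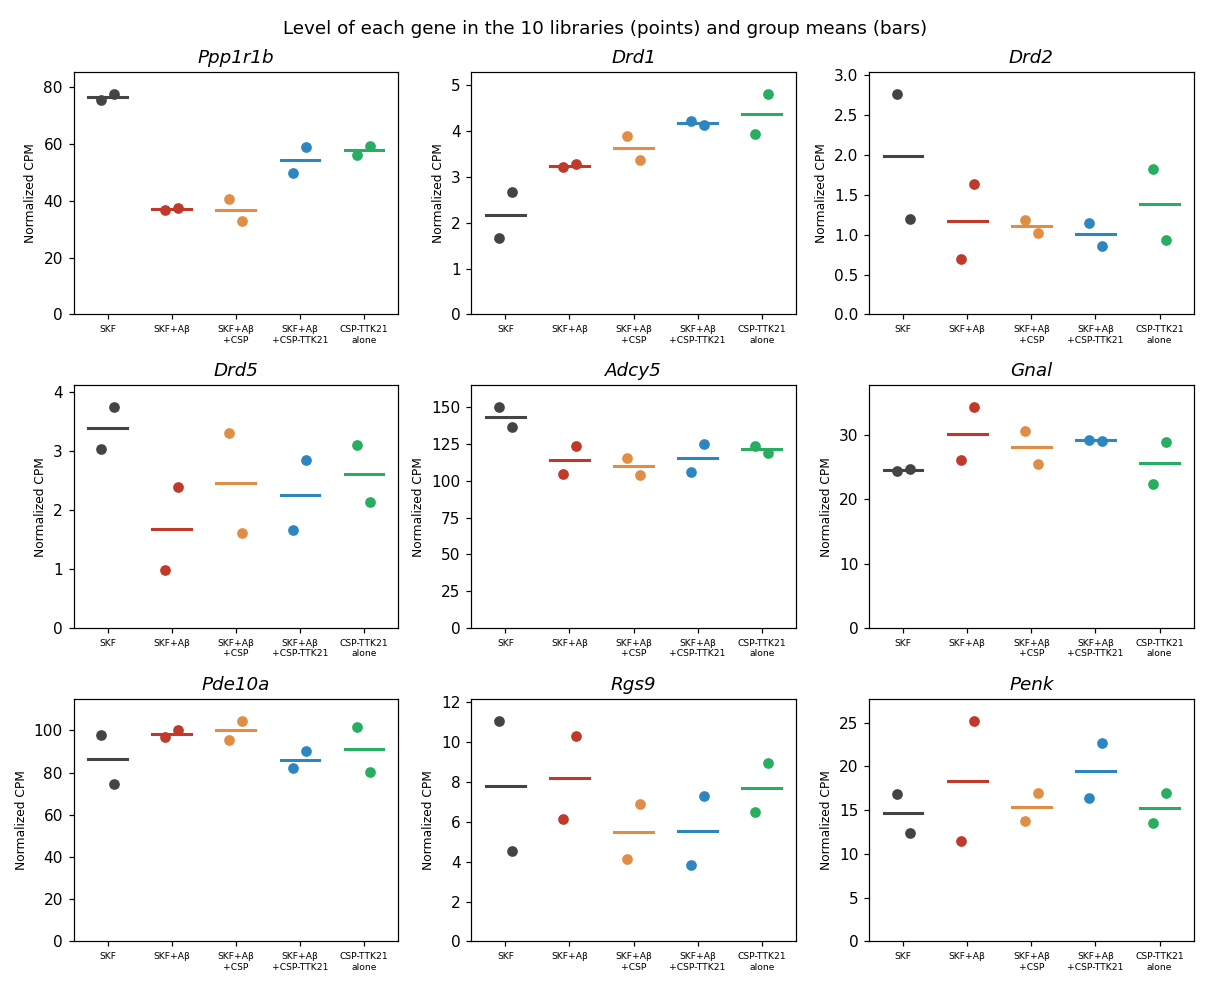
Normalized CPM (vertical axis, from 0) of the 9 genes in the 5 groups (horizontal axis), with 1 point per library and a bar at each group mean of 2 libraries. Ppp1r1b stood at 75.6 and 77.7 with SKF and between 33.0 and 59.5 in the other 8 libraries, whereas Pde10a, Rgs9 and Penk overlapped between SKF and each other group.

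No other member was called in any of the 8 comparisons, where a call is an adjusted p under 0.05 by the quasi-likelihood test of edgeR after Benjamini-Hochberg adjustment over all genes tested. Over the 64 tests (8 members, 8 comparisons) the adjusted p ran from 0.170 to 1.00, and 5 tests, of Adcy5 and Drd1, had an unadjusted p under 0.05. DESeq2 and limma on log2 CPM also called 0 of the 64, with 3 and 7 at an unadjusted p under 0.05, although DESeq2 gave no adjusted p for 15 of them. The F test for any difference among the 5 groups gave the 8 members adjusted p-values from 0.418 to 0.798, with 0 of 8 at an unadjusted p under 0.05.

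The background of these counts differed strongly between comparisons. In SKF+Aβ against SKF, 2.08% of all genes tested were called, and 22.8% had an unadjusted p under 0.05, a share to be read beside 1 of 8 members, Adcy5. In SKF+Aβ+CSP against SKF, 0.0200% were called and 19.3% had an unadjusted p under 0.05, against 1 of 8 members, again Adcy5. In SKF+Aβ+CSP-TTK21 against SKF, 0.00665% were called and 19.6% had an unadjusted p under 0.05, against 2 of 8 members, Adcy5 and Drd1. In CSP-TTK21 alone against SKF, 0% were called and 7.78% had an unadjusted p under 0.05, against 1 of 8 members, Drd1. These shares of members are near the background, so they set the members apart from other genes in no comparison.

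In the comparisons without the SKF group no member had an unadjusted p under 0.05, and 0% of all genes were called by edgeR. DESeq2 called 21 genes in SKF+Aβ+CSP-TTK21 against SKF+Aβ+CSP, none of them among the 8 members tested. The share of all genes with an unadjusted p under 0.05 was 2.18% for SKF+Aβ+CSP against SKF+Aβ and 6.59% for SKF+Aβ+CSP-TTK21 against SKF+Aβ. It was 8.78% for SKF+Aβ+CSP-TTK21 against SKF+Aβ+CSP and 4.18% for SKF+Aβ+CSP-TTK21 against CSP-TTK21 alone. For any difference among the groups, 0.00665% of genes were called and 14.3% had an unadjusted p under 0.05. The 312 genes behind the 2.08% fell to 1 when SKF+Aβ replicate 1 was left out, to 11 without SKF replicate 1 and to 13 without SKF+Aβ replicate 2.

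Adcy5 (ENSRNOG00000002229), which encodes the cyclase that D1-type receptors drive in the striatum, was the member closest to Ppp1r1b in direction. Its level was 150.0 and 136 normalized CPM with SKF, 105 and 124 with SKF+Aβ, and 116 and 104 with SKF+Aβ+CSP. It was 106 and 125 with SKF+Aβ+CSP-TTK21 and 124 and 119 with CSP-TTK21 alone. Both SKF libraries lay above the other 8, while the 4 groups of those 8 overlapped except SKF+Aβ+CSP with CSP-TTK21 alone. The log2 fold change was -0.33 in SKF+Aβ against SKF (95% interval -0.62 to -0.03, edgeR adjusted p = 0.179). It was -0.38 in SKF+Aβ+CSP against SKF (adjusted p = 0.170), -0.31 in SKF+Aβ+CSP-TTK21 against SKF (adjusted p = 0.235) and -0.24 in CSP-TTK21 alone against SKF (adjusted p = 0.675), none of which passed. The higher Ppp1r1b level with CSP-TTK21 had no like-sized counterpart in Adcy5, for which SKF+Aβ+CSP-TTK21 differed from SKF+Aβ by 0.02 (95% interval -0.28 to 0.31) and from SKF+Aβ+CSP by 0.07 (95% interval -0.23 to 0.36). Whether the changes of the 2 genes differ was not tested.

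The D1 receptor gene Drd1 (ENSRNOG00000023688) ran the other way from few reads, with 12 to 36 counts per library. Its level was 1.66 and 2.67 normalized CPM with SKF, 3.21 and 3.28 with SKF+Aβ and 3.90 and 3.37 with SKF+Aβ+CSP. It was 4.22 and 4.13 with SKF+Aβ+CSP-TTK21 and 3.94 and 4.81 with CSP-TTK21 alone, so that both SKF libraries were the lowest of the 10. The share of all genes whose libraries separate between groups in such ways was not counted. A separation of this kind, for Drd1 or any other member, therefore does not set that member apart from other genes. The log2 fold changes against SKF were 0.58 with SKF+Aβ (adjusted p = 0.369), 0.74 with SKF+Aβ+CSP (adjusted p = 0.280), 0.94 with SKF+Aβ+CSP-TTK21 (adjusted p = 0.185) and 1.01 with CSP-TTK21 alone (adjusted p = 0.633). None passed the test in edgeR. Leaving out 1 SKF library moved the first value to 0.26 or 0.96 and the second to 0.43 or 1.13, with the direction kept.

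Drd5 (ENSRNOG00000005338), the other D1-type receptor gene, had 7 to 28 counts per library. Its level was 3.04 and 3.74 normalized CPM with SKF and 0.98 and 2.38 with SKF+Aβ, a log2 fold change of -1.02 with a 95% interval of -2.13 to 0.10. The value became -1.795 without SKF+Aβ replicate 2 and -0.52 without SKF+Aβ replicate 1. In the other groups it ranged from 1.61 to 3.31, and each of these overlapped with SKF+Aβ. Both SKF libraries lay above both SKF+Aβ libraries, yet the interval holds both a fall larger than that of Ppp1r1b and a small rise, and the difference was not called (edgeR adjusted p = 0.259).

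Drd2 (ENSRNOG00000008428), whose product lowers cyclic AMP, was the scarcest in reads, with 5 to 20 counts per library. The 2 SKF libraries alone spanned 1.20 to 2.76 normalized CPM, and the other 8 ranged from 0.70 to 1.83. Its log2 fold change against SKF was -0.76 with SKF+Aβ, -0.82 where CSP was added, -0.96 where CSP-TTK21 was added and -0.52 for CSP-TTK21 without SKF and Aβ. Every one of these values had a standard error of 0.57 to 0.60, and the edgeR adjusted p ran from 0.388 to 0.826. Without SKF replicate 1 the values became -0.07, -0.13, -0.26 and 0.19 in the same order, so no direction can be read for Drd2.

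**Figure D2:**
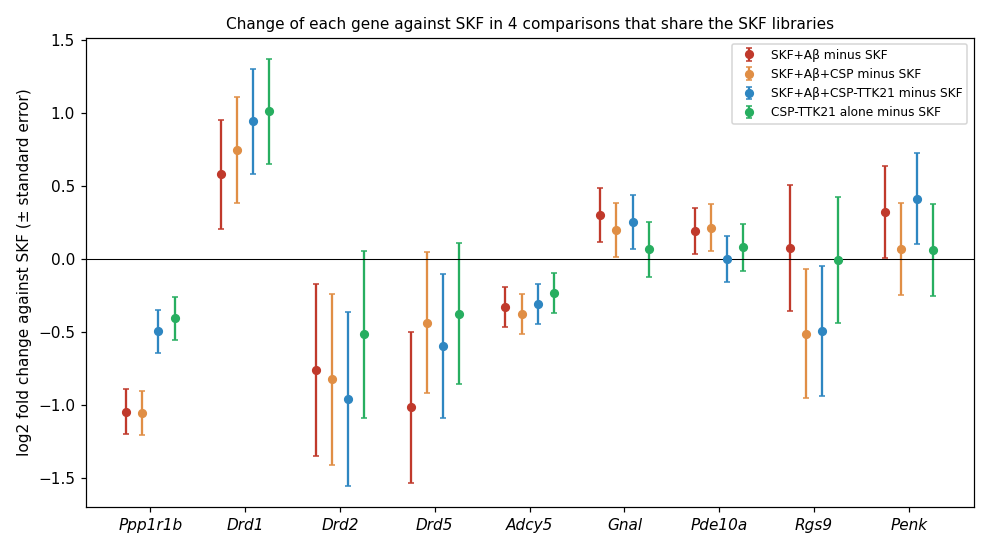
Fitted log2 fold change against SKF (vertical axis, with standard error bars from the fit across all 10 libraries) of the 9 genes (horizontal axis) in 4 comparisons that share the SKF libraries. Ppp1r1b lay at -1.05, -1.05, -0.50 and -0.41, Adcy5 between -0.38 and -0.24, Drd1 between 0.58 and 1.01, and Gnal between 0.06 and 0.30.

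Downstream of the receptors, Gnal, which encodes the G protein subunit that couples D1-type receptors to the cyclase in the striatum, and Pde10a, which encodes the phosphodiesterase, had more reads than the receptor genes. Gnal (ENSRNOG00000010440) stood at 24.3 and 24.7 normalized CPM with SKF and between 22.4 and 34.3 in the other 8 libraries, with log2 fold changes against SKF of 0.30, 0.20, 0.25 and 0.06 in the order just given for Drd2 and adjusted p-values from 0.350 to 0.945. The first had a 95% interval of -0.10 to 0.70 and became 0.07 without SKF+Aβ replicate 2, the second became 0.04 without SKF+Aβ+CSP replicate 1, and the last became -0.13 without CSP-TTK21 alone replicate 2. The SKF+Aβ libraries, at 26.1 and 34.3, lay above both SKF libraries. So did those of SKF+Aβ+CSP, at 30.6 and 25.5, and of SKF+Aβ+CSP-TTK21, at 29.3 and 29.1. The CSP-TTK21 alone libraries, at 22.4 and 28.9, lay on either side of the SKF libraries. Pde10a (ENSRNOG00000011310), whose promoter window held the core matches, stood at 98.0 and 74.5 with SKF and between 80.2 and 104.5 in the other 8 libraries. Its log2 fold change in SKF+Aβ against SKF was 0.19, with a 95% interval of -0.15 to 0.53 and an adjusted p of 0.502 by edgeR, and it became 0.38 without SKF replicate 1 and 0.0046 without SKF replicate 2. Against SKF the other values were 0.21 for SKF+Aβ+CSP, 0.00 for SKF+Aβ+CSP-TTK21 and 0.08 for CSP-TTK21 alone. The SKF+Aβ+CSP-TTK21 libraries, at 82.1 and 90.2, lay below those of SKF+Aβ and of SKF+Aβ+CSP, with log2 differences of -0.19 and -0.22 that edgeR did not call (adjusted p = 0.817 and 0.677).

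Rgs9 (ENSRNOG00000003800), which encodes the regulator that shortens G protein signals, spanned 4.54 to 11.1 normalized CPM within the SKF group alone (34 and 80 counts), as wide as its range of 3.84 to 10.3 over the other 8 libraries. Its log2 fold changes against SKF were 0.07, -0.51, -0.50 and -0.01 in the same order. The -0.51 and -0.50 became 0.25 and 0.26 when SKF replicate 1 was left out. No direction can therefore be read for Rgs9, whose adjusted p in edgeR ran from 0.561 to 0.997 against SKF.

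Penk (ENSRNOG00000008943), the enkephalin precursor gene, stood at 16.9 and 12.4 normalized CPM with SKF. It stood at 11.5 and 25.2 with SKF+Aβ, the widest spread of any group, and between 13.5 and 22.7 in the other 6 libraries. The log2 fold changes against SKF were 0.32, 0.06, 0.41 and 0.06, and the first became -0.37 without SKF+Aβ replicate 2. The second and the last both became -0.14 without SKF replicate 2, and the third ran from 0.145 to 0.63 with a library left out. Every group overlapped with SKF, and the edgeR adjusted p ran from 0.485 to 0.976.

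As a set, the 8 members other than Ppp1r1b had a median log2 fold change of 0.13 in SKF+Aβ against SKF, with 5 higher and 3 lower. In SKF+Aβ+CSP against SKF the median was -0.16 with 4 higher and 4 lower, and in SKF+Aβ+CSP-TTK21 against SKF it was -0.16 with 3 higher and 5 lower. In CSP-TTK21 alone against SKF it was 0.02, with 4 higher and 4 lower. In the 4 comparisons without SKF the median ran from -0.08 to 0.04. The median over all genes tested lay between -0.01 and 0.01 in every comparison.

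Over the 10 libraries, the level of each other member was set beside that of Ppp1r1b on log2 normalized CPM, which gave 8 relations. They are given as a description with no p, since Ppp1r1b was chosen on these values and the libraries come in groups that share a treatment. Adcy5 had the highest values, with Pearson's r = 0.80 and Spearman's rho = 0.84. Without the 2 libraries farthest from the median of Ppp1r1b, which were SKF+Aβ+CSP replicate 2 and SKF replicate 2, r for Adcy5 was 0.71. Drd5 followed with r = 0.63 and rho = 0.64, and r = 0.47 without the same libraries. Pde10a had r = -0.58 and rho = -0.61, and r = -0.22 without them. The other 5 members had r from -0.41 to 0.40 and rho from -0.38 to 0.35. Within groups the relation cannot be given, since each holds 2 libraries. The SKF libraries also had the 2 highest scores on the first principal component of all genes tested, which held 25.4% of the variance. Their scores were 44.8 and 17.9, with CSP-TTK21 alone replicate 1 close behind at 16.5. The component had r = 0.61 with Ppp1r1b, 0.76 with Adcy5, -0.74 with Drd1 and between -0.65 and 0.68 with the remaining members. The part of that component in the relation was not tested.

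The 8 other members and the 78 tested genes of the pathway lists below are few among 15032 genes. The genes most like Ppp1r1b could thus lie outside dopamine signaling whatever its relation to those few. Genes without an ordinary symbol were passed over in naming the 5 genes whose pattern was most like that of Ppp1r1b over the 10 libraries. By Pearson's r of log2 normalized CPM among 15032 genes, they were Ckb (r = 0.988), the brain-type creatine kinase gene, Rpl18 (0.986), a gene of the large ribosomal subunit, Bckdha (0.986), a gene of branched-chain amino acid breakdown, Ctbp1 (0.977), a transcriptional corepressor gene, and Fbxo2 (0.970), an F-box gene of protein turnover. Ckb stood at 64.7% of its SKF mean with SKF+Aβ, 65.6% with SKF+Aβ+CSP, 79.6% with SKF+Aβ+CSP-TTK21 and 80.2% with CSP-TTK21 alone. Fbxo2 came closest in size, at 52.3%, 53.0%, 74.5% and 71.5%. In all, 159 of 15031 other genes had r above 0.9 with Ppp1r1b and 137 had r below -0.9. The same counts were 108 and 174 for Adcy5 and 26 and 15 for Drd1, and between 3 and 20 for each of the other 6 members. These values are descriptions over 10 libraries that share treatments.

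**Figure D3:**
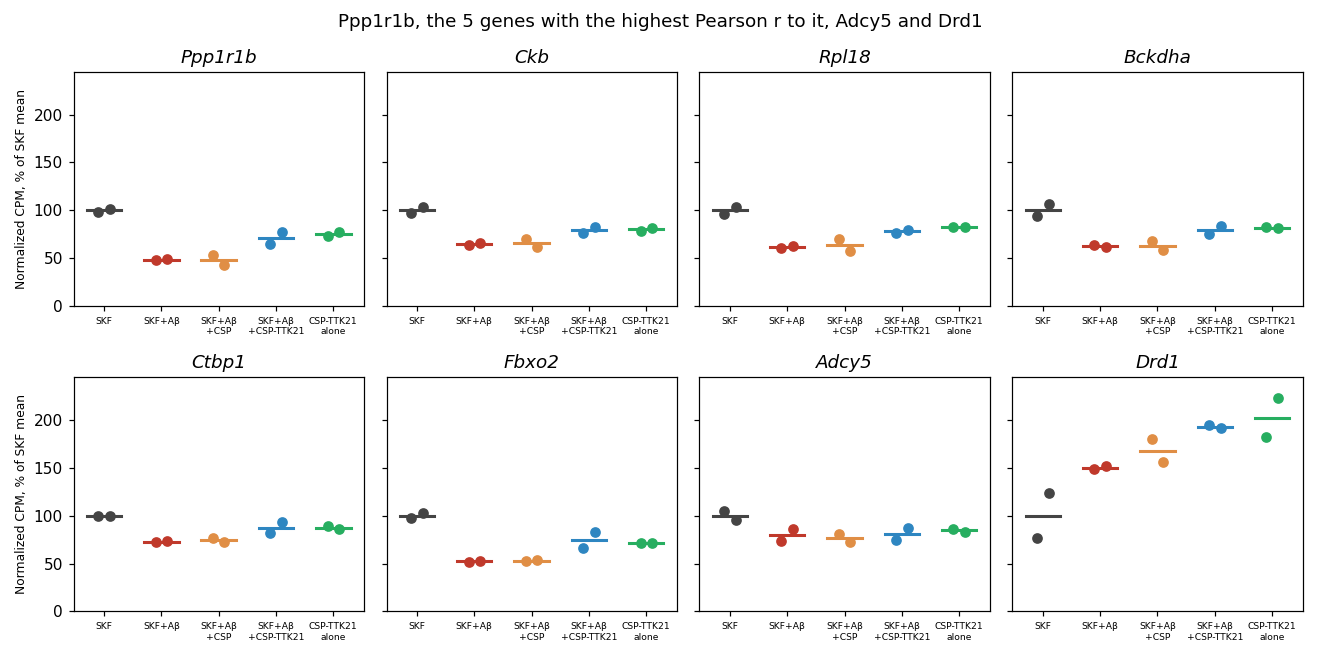
Normalized CPM as a percentage of the gene's SKF mean (vertical axis, from 0) in the 5 groups (horizontal axis) for Ppp1r1b, the 5 genes with the highest r to it, Adcy5 and Drd1, with 1 point per library and a bar at each mean of 2. Ppp1r1b stood at 48.5% and 48.1% in the Aβ groups without TTK21 and Fbxo2 at 52.3% and 53.0%, while Adcy5 stayed between 72.9% and 87.3% in all 8 libraries outside SKF and Drd1 between 148% and 222%.

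For Penk the closest genes had lower r: Itgbl1 (0.931), an integrin-like gene, Stip1 (0.929), a co-chaperone gene, Kcnh6 (0.918), a potassium channel gene, Cct2 (0.910), a chaperonin gene, and Mrap2 (0.909), a gene for an accessory protein of melanocortin receptors. The levels of these genes, like that of Penk, were spread widely within the SKF+Aβ group, where Itgbl1 had 41.1 ± 18.2 normalized CPM (SD, n = 2) against 32.8 ± 6.19 with SKF.

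The wider pathway was described by 6 lists that hold 94 genes, of which 78 were tested. None was called in any of the 8 comparisons by edgeR, in 632 tests of 79 table entries (Gnas has 2), and 57 of the tests had an unadjusted p under 0.05, beside 13715 of 120256 tests (11.4%) over all genes. The lowest adjusted p was 0.0634, for Gnb2, a G protein beta subunit gene, in SKF+Aβ against SKF. The list of receptors and G proteins had 20 of 22 genes tested and medians of log2 fold change from -0.11 to 0.20 over the 8 comparisons. The list of kinases, phosphatases and phosphodiesterases around DARPP-32, which holds the subunits of protein kinase A and of the phosphatase that DARPP-32 inhibits, had 35 of 36 tested and medians from -0.05 to 0.10. The striatal markers had 17 of 20 tested and medians from -0.11 to 0.08, and the neuropeptide list had 7 of 12 tested and medians from -0.05 to 0.43. The opioid receptor list, which holds the receptors of the enkephalins, had 2 of 4 tested, and the list of dopamine synthesis, transport and breakdown had 5 of 9. The remaining dopamine receptor genes were too scarce to test, with 1 to 11 counts per library for Drd3 and 0 to 3 for Drd4. Th, the rate-limiting enzyme gene of dopamine synthesis, had 1 to 10 counts, and Slc6a3, the dopamine transporter gene, had 1 to 8.

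Since several members mark striatal projection neurons, and since the slices held other cell types, marker lists were read beside Ppp1r1b. The list of CA1 pyramidal neurons held 7 markers, of which 6 had an entry and 5 were tested. Fibcd1 was listed at 0 in every library, while Wfs1 had 734 to 2662 counts. The CA1 sum was 411 to 843 normalized CPM over the 10 libraries. Dentate granule cell markers summed to 338 to 453 and CA3 markers to 251 to 364, so these sums do not show that the tissue held CA1 alone. The summed level of the 7 striatal markers was 127.7 to 130.4 normalized CPM with SKF and 82.1 to 117 in the other 8 libraries, so it was highest in the SKF group, as Ppp1r1b was. In the other groups the sum was 110 and 82.1 with SKF+Aβ and 117 and 97.2 with SKF+Aβ+CSP. It was 107 and 116 with SKF+Aβ+CSP-TTK21 and 99.6 and 89.7 with CSP-TTK21 alone. Most of that sum was Rasd2 (373 to 758 counts), and Isl1 was at 0 in every library. A 0 does not show that a cell type was absent, since the endothelial marker Cldn5 was also at 0 where Flt1, of the same list, had 240 to 691 counts. The 7 dentate granule cell markers summed to 338 to 378 with SKF, 442 to 446 with SKF+Aβ, 388 to 426 with SKF+Aβ+CSP, 418 to 453 with SKF+Aβ+CSP-TTK21 and 362 to 374 with CSP-TTK21 alone. They were thus higher in the 6 Aβ libraries than in the SKF libraries, opposite to Ppp1r1b, while CSP-TTK21 alone lay within the SKF range. Choroid plexus markers were near 0 throughout, with a sum of 1.28 to 7.54, Ttr at 0 to 27 counts and Sostdc1 at 2 counts or fewer. Oligodendrocyte markers summed to 16312 to 24068 with SKF, 11020 to 15660 with SKF+Aβ and 15038 to 15313 with CSP-TTK21 alone, both below SKF, and to 14929 to 25123 in the other 4 libraries, which overlapped with SKF. Interneuron markers stood at 394.0 and 394.3 with SKF, at 385 to 552 in the Aβ libraries without TTK21, at 495 and 502 with SKF+Aβ+CSP-TTK21 and at 415 and 459 with CSP-TTK21 alone. All 4 libraries with TTK21 thus lay above both SKF libraries in that sum. Meningeal markers summed to 9.54 to 13.4 with SKF and 11.5 to 33.7 in the others. Microglia markers summed to 79.6 and 147 with SKF, 62.9 to 97.9 in the Aβ libraries without TTK21, and 90.6 to 143 in the 4 libraries with TTK21, so their group means were lower where Ppp1r1b was lowest. SKF+Aβ overlapped with SKF in that sum, and SKF+Aβ+CSP lay just below it. Astrocyte markers stood at 4631 and 4728 with SKF+Aβ+CSP-TTK21 and at 3539 to 3986 in the Aβ libraries without TTK21, while SKF spanned 3421 to 4721. Endothelial markers were lowest with SKF+Aβ+CSP-TTK21, at 63.7 and 66.9, against 81.1 to 154 in the other 8 libraries. CA3 markers ranged from 251 to 364 and overlapped between SKF and every other group. None of the genes in the 11 marker lists was called in any comparison, and the lowest adjusted p by edgeR was 0.0617, in the microglia list. The part of these cell types in the level of Ppp1r1b was not tested.

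**Figure D4:**
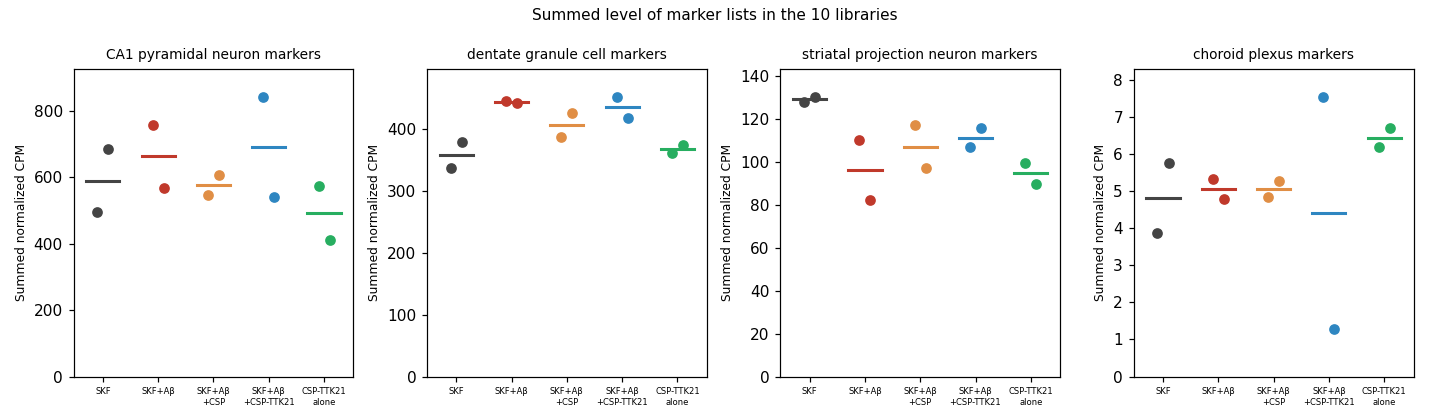
Summed normalized CPM (vertical axes, each from 0) of 4 marker lists in the 5 groups (horizontal axis), with 1 point per library and a bar at each mean of 2. The striatal list was highest with SKF (127.7 to 130.4), the dentate list was highest in Aβ-treated groups (388 to 453 against 338 to 378 with SKF), the CA1 list overlapped between groups, and the choroid plexus list stayed at or below 7.54.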

How the data were processed

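The deposited values were whole-number read counts per rat Ensembl gene, made by the authors from stranded, rRNA-depleted paired-end libraries of microdissected CA1. The methods give adapter trimming, removal of duplicate reads, alignment with TopHat2 to the mouse assembly mm10, although a rat genome was downloaded, and quantification with Cufflinks. The submitters' processing notes name STAR, HISAT2, RSEM, Salmon and GRCh38. Which counting program, gene annotation and strand setting were used is not given in the sources used here.

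Totals were 6753742 to 8473407 counts per library, with TMM factors of 0.958 to 1.03 and a common biological coefficient of variation of 0.136. Counts of 10 libraries were fitted with edgeR 4.0.16 (TMM, filterByExpr, 5 group means, quasi-likelihood test, Benjamini-Hochberg over 15032 genes). For a pair of groups with 2 libraries each, an exact permutation test could not pass 0.05. Replicates differed beyond sampling noise (chi-square per degree of freedom 4.97 to 12.6), and p-values cover the spread between these libraries only. Correlations used log2 normalized CPM with a prior count of 2; their planned permutation tests are not reported, since Ppp1r1b was chosen on its values. The fit was tested on simulated data.

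The members and lists were chosen with earlier results of these data known. The naming rule was all members, list genes with an adjusted p under 0.05 (at most 5 a list) and the 5 genes most like Ppp1r1b and Penk. Gnb2, Rasd2, Flt1 and the scarce genes were named after their values were seen. Alternatives were RLE scaling, other filters, DESeq2 1.42.0, limma 3.58.1, a replicate block, only the 4 libraries compared and leaving out each library. Promoters came from RefSeq (GRCr8).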

Additional observations from a re-analysis of the deposited data

How the results depend on the processing

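The count of called members, Ppp1r1b aside, was 0 in all 152 alternatives, but some members had no adjusted p in 3 settings: 15 of 64 tests with DESeq2, 16 with at least 10 counts in every library (Drd2 and Drd5) and 6 with only the 4 libraries compared. Leaving out a library turned the sign of 32 of the 64 fold changes of the 8 members, 11 of them among the 32 against SKF. In 4 of these the value over all libraries exceeded its standard error: Drd5 in SKF+Aβ+CSP against SKF+Aβ ran from -0.046 to 1.35, Rgs9 in SKF+Aβ+CSP against SKF from -1.02 to 0.25, Rgs9 in SKF+Aβ+CSP-TTK21 against SKF from -1.03 to 0.26 and Penk in SKF+Aβ against SKF from -0.37 to 0.77 (log2). The correlation of Ppp1r1b with Adcy5 fell to 0.706 without the 2 farthest libraries. The number of genes called over the whole table moved far more. In SKF+Aβ against SKF it was 312, against 1311 with no filter, 818 with DESeq2, 12 with only the 4 libraries compared and 1 to 301 leaving out a library. In SKF+Aβ+CSP against SKF it was 3, against 754 with no filter, 456 with DESeq2 and 54 with at least 10 counts in every library. In SKF+Aβ+CSP-TTK21 against SKF it was 1, against 902 with no filter, 330 with DESeq2 and 335 without SKF replicate 2. In SKF+Aβ+CSP-TTK21 against SKF+Aβ+CSP it was 0, against 307 with no filter, 50 with only the 4 libraries compared, 21 with DESeq2 and 14 with the replicate block. In the other 4 pairs it was 0, against 63 to 157 with no filter and 0 to 7 otherwise. For any difference it was 1, against 1401 with no filter and 386 with DESeq2. Same-numbered replicates deviated together with r from -0.07 to 0.24 over 10 group pairs, so the numbers were not taken to pair the samples. With the replicate block the counts for SKF+Aβ, SKF+Aβ+CSP and SKF+Aβ+CSP-TTK21 against SKF were 425, 7 and 108, that for CSP-TTK21 alone was 0, and 0 of the 8 members were called. List genes called moved from 0 to between 1 and 3 in 17 of 816 alternatives, most of them with no filter or DESeq2. The cause of these shifts was not tested. Drd1, Drd2 and Drd5 rest on 5 to 36 counts per library.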
